A study of Mus musculus with 6 samples.

Results

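Oxidative phosphorylation genes were read as the probes whose platform symbol begins with Nduf, Uqcr, Atp5, Cox4, Cox5, Cox6, Cox7 or Cox8, or is Sdha, Sdhb, Sdhc, Sdhd, Cyc1 or Cycs, without Cox8b and Cox7a1. The rule named 137 of the 45281 probes of a mouse bead array, for 87 genes. Of these, 108 probes for 78 genes were kept because 3 or more of the 6 arrays gave them a detection p-value under 0.05, among 16442 kept probes and 9760 kept named genes in all. By symbol, 33 kept genes belonged to complex I, 3 to complex II, 7 to complex III, 11 to complex IV and 15 to complex V, and 1 encoded cytochrome c. The prefix Nduf also took in 7 kept assembly factors of complex I (Ndufaf genes) and the pseudogene Ndufs5-ps. These are part of the 78 genes but not of the 70 genes of subunits and cytochrome c.

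The RNA came from green fluorescent stromal-vascular cells of white fat, which the study calls adipose progenitors. Mice of both groups carried PPARgamma-tTA;tetO-H2B-GFP (AdipoTrak), a reporter whose tetracycline transactivator is driven from the Pparg promoter and turns on a fluorescent histone, so cells were collected for the activity of that promoter. They were adults aged 2 to 6 months, given plain chow (untreated) or chow with 0.0075% rosiglitazone for 2 months. Rosiglitazone, a thiazolidinedione drug, activates the nuclear receptor PPARgamma. Cells were sorted from inguinal, interscapular and gonadal fat, with 3 cohorts of 3 to 4 mice in each group and 1 array a cohort, so an array stands for pooled animals and depots.

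Oxidative phosphorylation is carried out by 5 complexes in the inner mitochondrial membrane. Complexes I and II pass electrons from NADH and succinate to ubiquinone, complex III passes them to cytochrome c and complex IV to oxygen, while complexes I, III and IV move protons across the membrane and complex V, the ATP synthase, lets them back to make ATP. Most subunits are encoded in the nucleus, and only these were read here. In fat, mitochondria are dense in brown and beige adipocytes, and rosiglitazone is known to raise mitochondrial content in adipocytes.

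Array totals ranged from 9478692 to 14831319 intensity units and 34.2% to 38.4% of probes were detected on each array. Progenitor markers such as Pdgfra, Pdgfrb, Cd34, Dlk1 and Pi16 were detected on all 6 arrays, while Cd24a was detected on 0. Over all kept probes, 392 passed an adjusted p of 0.05 in limma (2.38%), 81 higher (0.493%) and 311 lower (1.89%) with rosiglitazone. The count was 216 without untreated replicate 1, and that of higher probes was 31 and 42 when untreated replicates 1 and 2 were left out in turn and 39 when rosiglitazone replicate 2 was. The 12 measured macrophage markers of 16 listed were all lower, 11 of them past the threshold, with a mean log2 level of 8.97 to 9.55 on untreated and 6.39 to 7.47 on rosiglitazone arrays. Their part in the results below was not tested.

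Most oxidative phosphorylation genes sat slightly higher with rosiglitazone, and none passed the test. Of the 78 genes, each read by its brightest kept probe, 70 had a log2 change above 0 (89.7%, against 55.7% of all kept named genes), and the median was 0.17, or 1.13-fold, against 0.04, or 1.03-fold, over all kept named genes. By limma, 0 of 78 genes and 0 of 108 probes passed the adjusted threshold, which 2.87% of all kept named genes passed (0.594% higher, 2.27% lower). Among the members at an unadjusted p under 0.05 there were 2 higher genes, Cox6b2 and the assembly factor Ndufaf1, and 0 lower ones. By probe there was also 1 lower, a second probe of Cycs. The background at that level was 6.07% higher and 6.97% lower. In 17 genes every rosiglitazone array lay above every untreated array and in 0 genes below, where the shares over all kept named genes were 9.96% and 8.53%. Of the 70 genes of subunits and cytochrome c, 63 were above 0 (median 0.17) and 15 lay higher without overlap. Counted by probe, 22 of 108 were separated upward and 0 downward, against 9.38% and 7.83% of all kept probes. The genes share the same 6 arrays and are not independent of each other. In pooled cells, more cells of a type and more RNA per cell cannot be told apart.

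The size of change that these arrays could show bears on the count of 0. The standard error of a member's log2 change had a median of 0.18, between 0.16 and 0.33. In limma it is drawn toward the spread over all kept probes, so it is not a gene's own spread alone. The smallest fold called over all probes was 1.66. The largest fold among the 78 genes, by brightest probe, was 1.52, and the dim second probe of Cycs was 1.54-fold lower. By brightest probe, the 95% interval excluded a 2-fold rise for all 78 genes, a 1.5-fold rise for 45 and a 1.5-fold fall for 73. It excluded no difference for 2. Dim second probes of Ndufb6 and Ndufa5 did not exclude a 2-fold rise, with upper limits of 2.47-fold and 2.04-fold. Fold changes are on a log2 scale with an offset of 16 intensity units, which understates the change of dim probes.

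**Figure D1:**
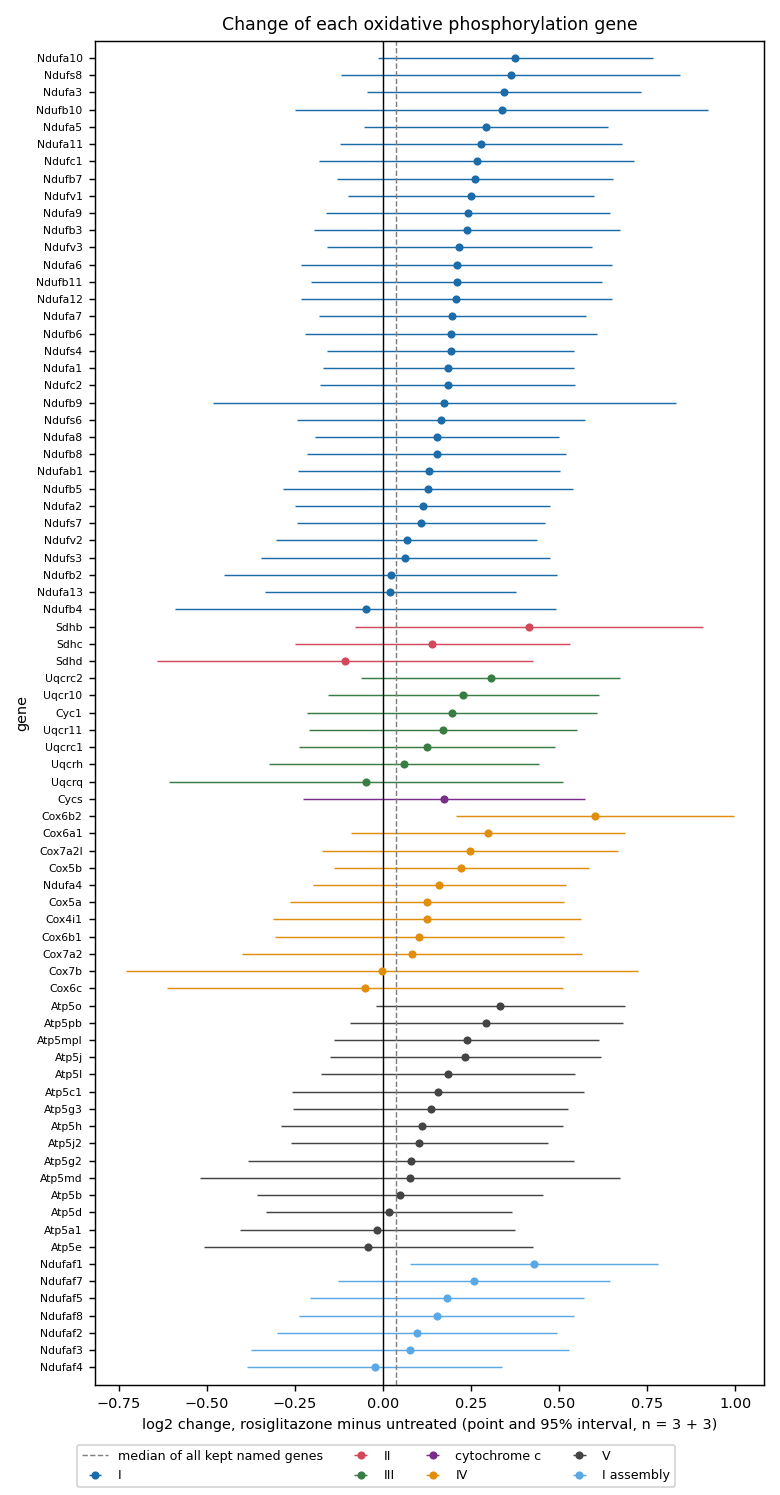
Log2 change of each kept gene, rosiglitazone minus untreated (horizontal axis, log2 units), with its 95% interval from limma over 3 arrays a group, by complex and sorted by change; the pseudogene is left out and the dashed line is the median of all kept named genes. Points lie mostly right of 0, between -0.11 for Sdhd and 0.60 for Cox6b2, and the intervals of Cox6b2 and Ndufaf1 alone lie clear of 0.

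Complex I, which takes electrons from NADH, was the largest group. Of its 33 genes, 32 had a log2 change above 0, with a median of 0.19, and 9 showed no overlap between the groups, where 9.96% of all kept named genes lay higher without overlap. The smallest adjusted p was 0.439. The sign was nearly uniform within the complex, but no gene passed the test.

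The core subunits carry the flavin and the iron-sulfur clusters of complex I. All 5 measured had a positive change, with a median of 0.11. Ndufv1, the subunit that binds the flavin and NADH, stood at 10.97, 11.05 and 11.04 log2 units untreated and at 11.26, 11.31 and 11.25 with rosiglitazone. Its groups were tight and did not overlap, with a fold of 1.19 (95% interval 0.933 to 1.51, limma adjusted p = 0.602). Ndufs8, which holds a pair of clusters near ubiquinone, was at 9.71, 9.69 and 9.13 untreated and at 10.17, 9.74 and 9.72 with rosiglitazone. These groups met almost edge to edge, since untreated replicate 3 was far below and rosiglitazone replicate 1 far above the rest (1.29-fold, adjusted p = 0.577 in limma). The log2 change of Ndufs8 was 0.36, falling to 0.17 with untreated replicate 3 left out and to 0.22 with rosiglitazone replicate 1 left out. Ndufs7, Ndufv2 and Ndufs3, the other core subunits measured, had overlapping groups and log2 changes of 0.11, 0.07 and 0.06. Leaving out untreated replicate 2 put Ndufs3 at -0.03 and Ndufv2 at -0.01, and leaving out rosiglitazone replicate 2 put Ndufs3 at -0.06. The core subunit gene Ndufs1 was detected on 0 arrays and is not described further.

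Accessory subunits surround the core and are needed for its assembly and stability. All 13 measured Ndufa genes were above 0, with a median of 0.21, and 11 of 12 Ndufb and Ndufc genes, with a median of 0.19. Ndufa10 was at 9.93, 10.004 and 10.34 untreated and at 10.46, 10.51 and 10.43 with rosiglitazone. Its highest untreated array, replicate 3, came close to the treated ones without reaching them (1.30-fold, 95% interval 0.989 to 1.70, adjusted p = 0.439 in limma). Ndufa3 ranged from 11.16 to 11.33 untreated and from 11.36 to 11.76 with rosiglitazone, just clear of each other (1.27-fold, adjusted p = 0.496). Ndufa5, chosen after its values were seen, had tight groups, 10.36, 10.36 and 10.39 against 10.65, 10.69 and 10.66 (1.22-fold, adjusted p = 0.518). Ndufb4, which lay against the trend, was dim and its groups overlapped, from 4.92 to 5.80 and from 4.97 to 5.42, for a log2 change of -0.05. That value became 0.20 and 0.10 when replicate 1 of the untreated or of the rosiglitazone group was left out. Ndufb11 was detected on 1 untreated and 3 rosiglitazone arrays, with levels of 4.45 to 4.98 and 4.80 to 4.97 that overlapped.

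Assembly factors build complex I and are not part of the finished enzyme. Among 7 measured Ndufaf genes, 6 were above 0 with a median of 0.15, which was 0.09 with untreated replicate 2 or 3 left out and 0.23 with rosiglitazone replicate 3 left out. Ndufaf1, which helps assemble the membrane arm, was at 7.42, 7.36 and 7.40 log2 units untreated and at 7.81, 7.76 and 7.89 with rosiglitazone. The groups were well apart relative to their spread, 7.40 ± 0.03 and 7.82 ± 0.07 (SD, n = 3 each), a 1.35-fold difference (95% interval 1.05 to 1.72), but limma's adjusted p was 0.294. Ndufaf7, a methyltransferase that modifies a core subunit, was at 5.79, 6.08 and 6.12 untreated and 6.24, 6.37 and 6.15 with rosiglitazone, which did not overlap (1.20-fold, adjusted p = 0.634). Its log2 change of 0.26 became 0.15 with untreated replicate 1 left out. Ndufaf4 lay at -0.02 by its brightest probe and 0.05 by the other one kept. Ndufaf6 was not kept, with detection on 0 arrays. The pseudogene Ndufs5-ps had a log2 change of 0.21, or 0.12 with rosiglitazone replicate 1 left out, and a probe on it may share signal with its parent gene.

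Complex II, succinate dehydrogenase, links the tricarboxylic acid cycle to the respiratory chain. The flavin subunit Sdha was detected on 0 arrays, leaving 3 genes with a median log2 change of 0.14. Sdhb, the iron-sulfur subunit, was at 8.78, 8.26 and 8.13 untreated and 8.82, 9.06 and 8.53 with rosiglitazone. Untreated replicate 1 lay within the treated range, so its 1.33-fold difference came with overlapping groups (95% interval 0.946 to 1.88, adjusted p = 0.522 in limma). The membrane anchors differed in sign. Sdhc was at 0.14, and at 0.02 without untreated replicate 2, and Sdhd, at dim levels of 5.20 to 5.78 and 5.02 to 5.83, was at -0.11. Sdhd turned to 0.04 with untreated replicate 1 left out, and to 0.06 with rosiglitazone replicate 2 left out. No statement on complex II as a whole can rest on 3 genes of mixed sign.

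Complex III passes electrons from ubiquinol to cytochrome c. Of its 7 measured genes, 6 were above 0, with a median of 0.17, which was 0.09 without untreated replicate 2. Uqcrc2, a core protein on the matrix side, was at 10.87, 10.95 and 10.98 untreated and 11.34, 11.30 and 11.08 with rosiglitazone. It was the only gene of the complex whose groups did not overlap (1.24-fold, 95% interval 0.958 to 1.59, adjusted p = 0.527 in limma). The small subunit gene Uqcr10 had tight untreated levels of 12.45 to 12.52, and rosiglitazone replicate 3 at 12.48 fell among them while the other two were at 12.86 and 12.82 (1.17-fold, adjusted p = 0.681). Its log2 change of 0.23 became 0.35 with that treated array left out. Cyc1, the cytochrome c1 subunit that hands electrons to cytochrome c, was at 8.96, 9.17 and 8.71 against 9.32, 9.09 and 9.02, a log2 change of 0.20 with overlap. Cyc1 was at 0.08 with untreated replicate 3 left out, at 0.11 with rosiglitazone replicate 1 left out and at 0.31 with untreated replicate 2 left out. Uqcrq, at -0.05, varied most among the treated arrays, from 7.14 to 8.17, and its change was 0.21 without rosiglitazone replicate 2 and 0.03 without untreated replicate 3. Uqcrfs1, the gene of the Rieske iron-sulfur protein, was detected on 0 arrays.

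Cytochrome c, encoded by Cycs in somatic cells, carries electrons between complexes III and IV. Its brightest probe was at 9.55, 9.11 and 9.24 untreated and 9.48, 9.58 and 9.36 with rosiglitazone, a log2 change of 0.17 (adjusted p = 0.781) with untreated replicate 1 inside the treated range. It was at 0.30 with that array left out and at 0.08 with untreated replicate 2 left out. A second, dim probe, detected on 3 untreated and 1 rosiglitazone arrays, had a change of -0.62 (adjusted p = 0.312). The remaining probe, also dim, was at 0.09. The probes thus disagreed in sign, and the mean over the 3 was -0.12.

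Complex IV, cytochrome c oxidase, reduces oxygen. Of 11 measured genes, Ndufa4 included because its product is a subunit of this complex despite the name, 9 were above 0, with a median of 0.12, which was 0.25 without untreated replicate 1. Cox6b2, a form of subunit 6b known mainly from testis and sperm, had the largest change of all member genes read by brightest probe. It was at 5.17, 5.24 and 5.33 log2 units untreated and 5.86, 6.07 and 5.62 with rosiglitazone, all at dim levels. Group means were 5.25 ± 0.08 and 5.85 ± 0.22 (SD, n = 3 each), 1.52-fold apart (95% interval 1.15 to 1.99, unadjusted p = 0.00667, adjusted p = 0.156 in limma). With array weights the adjusted p was 0.0455, the only setting in which a member passed, and over the alternatives it ran from 0.0455 to 1. The log2 change was 0.60, but 0.24 without background correction and on the authors' normalized table, and 0.35 with an offset of 50. Another Cox6b2 probe was not kept, with detection on 1 rosiglitazone array. Cox6b1, the general form, was at 12.44, 12.58 and 12.42 against 12.80, 12.65 and 12.29, overlapping, with a log2 change of 0.10, and -0.01 without rosiglitazone replicate 1. Whether the paralogs differed in response was not tested.

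Other forms of the oxidase subunits gave smaller values. Cox6a1 was at 11.95, 12.20 and 12.00 untreated and 12.48, 12.41 and 12.15 with rosiglitazone, where a single treated array dipped below the highest untreated one (1.23-fold, adjusted p = 0.569 in limma). Its muscle and heart paralog Cox6a2 was detected on 2 untreated and 0 rosiglitazone arrays and was not kept. Cox4i1, a subunit that takes part in regulation by ATP, had a change of 0.12, with untreated replicate 2 at 11.80 and every other array between 12.06 and 12.40. Without that replicate the change was -0.04. Cox4i2, its lung-enriched form, was detected on 2 untreated and 0 rosiglitazone arrays, just outside the detection rule, and Cox7b2 and Cox8c, known from testis, on 0. Cox7a2l, a supercomplex assembly factor, was at 0.25 and Cox7a2 at 0.08, both with overlap, and Cox7a2 was at -0.10 without untreated replicate 3. Cox7a2l was at 0.40 with rosiglitazone replicate 1 left out and at 0.13 with rosiglitazone replicate 3 left out. Ndufa4 was at 0.16 with overlap. Against the trend, Cox6c was at -0.05 and Cox7b at 0.00, and untreated replicate 1 held the highest value of both. Without that array they were at 0.17 and 0.33.

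Complex V, the ATP synthase, has a catalytic head with a rotor and a stator stalk that holds it. Of 15 genes, 13 were above 0, with a median of 0.11, which was 0.22 without untreated replicate 1, and the groups did not overlap for 3, against 9.96% higher over all kept named genes. Its parts are given apart. The 7 genes of head and rotor had a median of 0.05, 5 above 0 and 0 without overlap. The 8 of stalk and accessory subunits had a median of 0.21, 8 above 0 and the same 3 without overlap, to be read against that 9.96%. This division was not tested.

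Atp5b, the catalytic beta subunit, was at 13.67, 13.83 and 13.57 untreated and 13.99, 13.67 and 13.55 with rosiglitazone. Its arrays interleaved, for a log2 change of 0.05, which was -0.01 under median scaling. Atp5a1, the alpha subunit, was at -0.02 and its other kept probe at -0.06, with the brighter probe between 7.59 and 7.95 on all arrays. Atp5e, at the foot of the rotor, was at -0.04. The proton-carrying c subunit is encoded by several genes with the same mature protein: Atp5g3 was at 0.14 and Atp5g2 at 0.08, both with overlap, and with rosiglitazone replicate 1 left out they were at 0.03 and -0.10. Atp5g3 was at 0.21 with untreated replicate 2 left out. None of these lay beyond the spread between arrays.

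The 3 genes without overlap were all among the stalk and accessory subunits. Atp5o, the subunit that ties the stalk to the head, was at 11.40, 11.37 and 11.46 untreated and 11.79, 11.77 and 11.67 with rosiglitazone. These tight groups gave a fold of 1.26 (95% interval 0.987 to 1.61), with an adjusted p of 0.452 in limma. Atp5pb, the b subunit of the stalk, was at 8.46, 8.25 and 8.10 against 8.57, 8.67 and 8.44, where one treated array fell just under the highest untreated one (1.22-fold, adjusted p = 0.577). A further Atp5pb probe was at 0.23 and a dim one at -0.11. Atp5l and Atp5mpl, also without overlap, were at 0.18 and 0.24. At the edge of the detection rule, Atp5md was kept with 1 untreated and 2 rosiglitazone arrays (log2 change 0.08), and Atp5k, with 1 of each, was not.

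**Figure D2:**
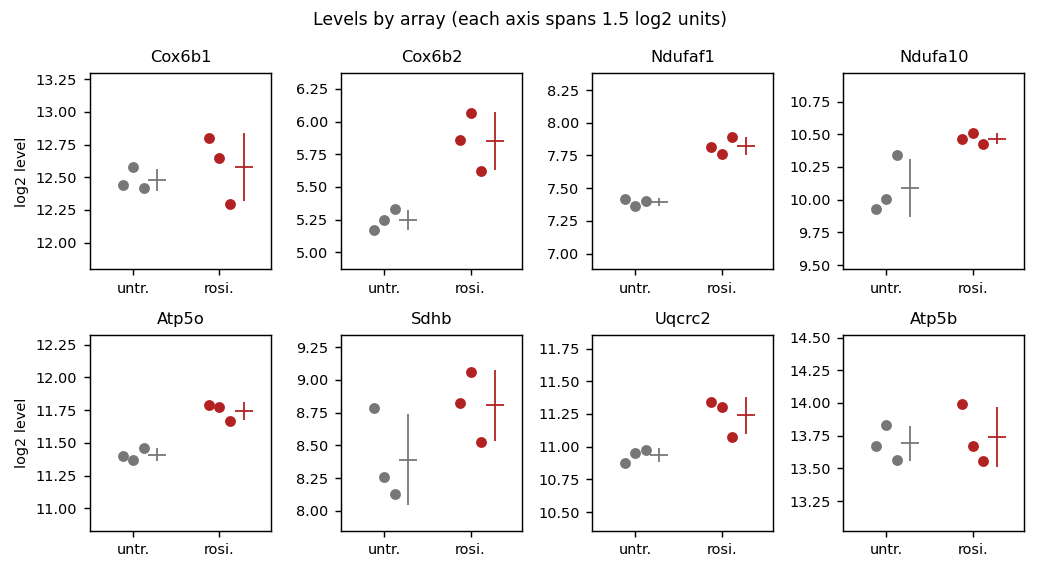
Normalized log2 level (vertical axis, each spanning the same 1.5 log2 units) of 8 genes on each untreated (grey) and rosiglitazone (red) array, with mean and SD beside them (n = 3). Ndufaf1, Atp5o, Uqcrc2, Ndufa10 and Cox6b2 separate by group, whereas Cox6b1, Sdhb and Atp5b overlap. All but Cox6b1 and Atp5b were picked for a small p-value within their complex, so the panel does not stand for the set. Among all members 17 of 78 genes lay higher without overlap, against 9.96% of all kept named genes.

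Where a gene had several probes, their signs mostly matched. Of 24 genes with more than 1 kept probe, 20 had all probes above 0, 1 (Atp5a1) had all below, and Atp5pb, Cycs and Ndufaf4 had both signs. The highest and lowest probe of a gene differed by a median of 0.11 log2 units. None of the probes of these 3 genes passed the adjusted threshold, and 1, the dim Cycs probe at -0.62, had an unadjusted p under 0.05.

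By array, the members did not split evenly. Untreated replicate 2 held the lowest value of 30 of the 70 subunit and cytochrome c genes (42.9%, against 19.8% of all kept named genes). It held the highest of 0, against 17.1% of all kept named genes. Untreated replicate 3 held the lowest of 20 (28.6%, against 15.6%). Rosiglitazone replicates 1 and 2 held the highest of 27 and 24 (38.6% and 34.3%, against 21.2% and 13.2% of all kept named genes). Untreated replicate 1 and rosiglitazone replicate 3 lay near the middle: their mean deviations from each gene's own mean were 0.0244 and 0.0223 log2 units. Those of untreated replicates 2 and 3 were -0.15 and -0.12, and those of rosiglitazone replicates 1 and 2 were 0.10 and 0.13. The highest untreated array thus lay just above the lowest treated one, and the array means of the 70 genes overlapped between the groups. Untreated replicate 2 was also the array with the lowest total intensity and fewest detected probes (15492). It had the highest erythroid marker level too, at 9.94 log2 units. Its part in the result was not tested. Without it, 64 of 78 genes were above 0 with a median of 0.14. Without untreated replicate 1, 76 were above 0 with a median of 0.22.

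**Figure D3:**
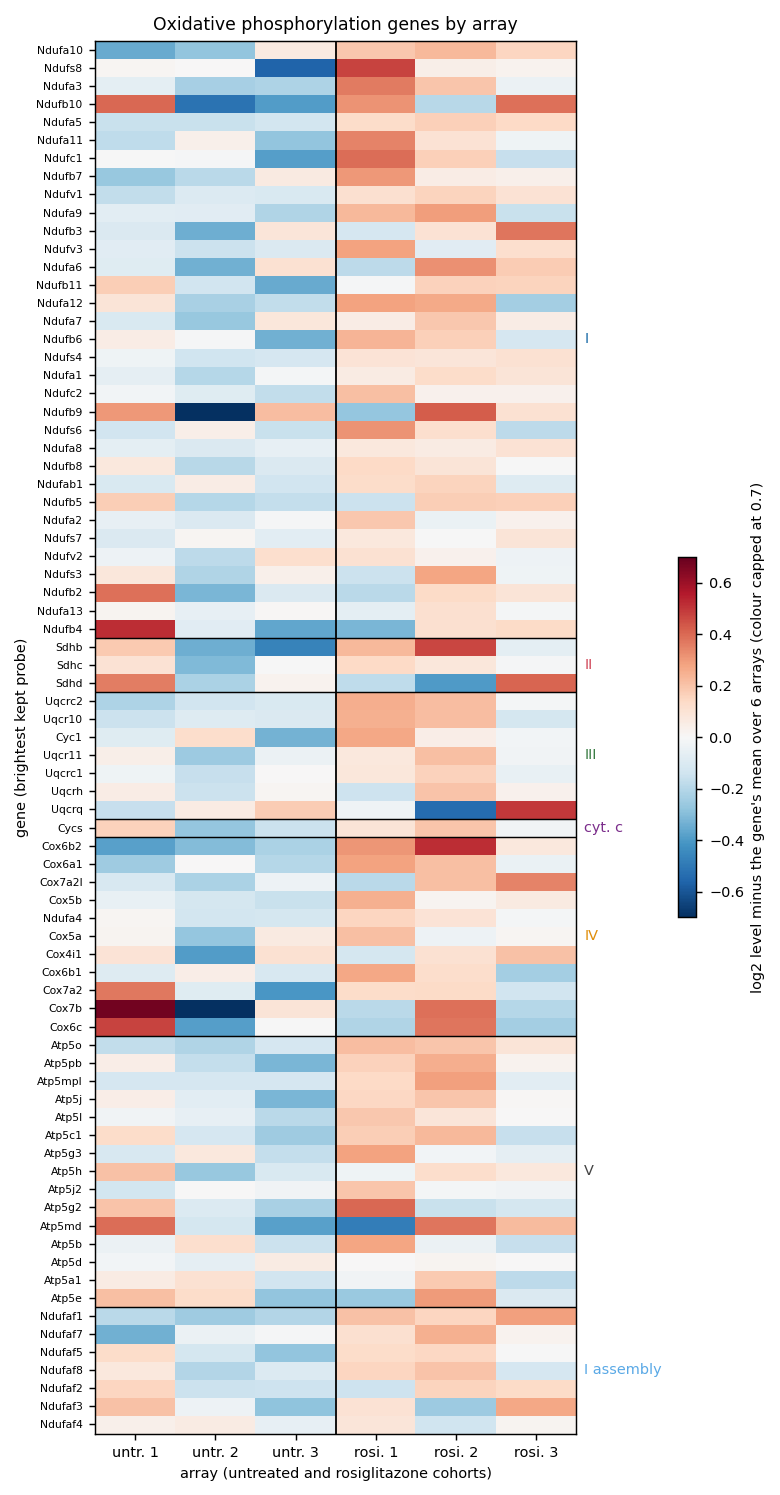
Log2 level of each kept gene minus its own mean over the 6 arrays (colour, capped at 0.7 log2 units), genes in rows by complex and arrays in columns, without the pseudogene. Rosiglitazone replicates 1 and 2 are mostly red and untreated replicates 2 and 3 mostly blue, while untreated replicate 1 and rosiglitazone replicate 3 hold both colours.

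The complexes shared this order only in part. For complex I, untreated replicate 1 lay at 0.00 and the other untreated arrays at -0.17 and -0.12, all under the treated values of 0.11, 0.13 and 0.05. Complex III gave the same separation, with -0.08, -0.09 and -0.06 against 0.11, 0.07 and 0.04. In complexes II, IV and V untreated replicate 1 stood at 0.21, 0.07 and 0.04, above at least 1 treated array in each. Rosiglitazone replicate 3 was at -0.01 and -0.03 for complexes IV and V. Across all kept named genes the array means stayed between -0.01 and 0.01.

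**Figure D4:**
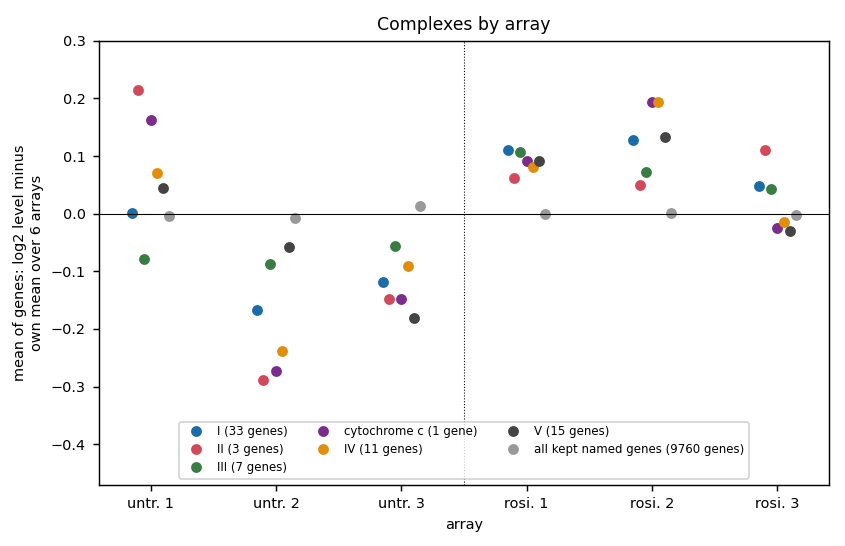
Mean over the genes of each complex of the log2 level minus the gene's own mean (vertical axis, log2 units) on each array, 1 point a complex and grey for all 9760 kept named genes. The arrays of the groups separate for complexes I and III and overlap for II, IV, V and cytochrome c.

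In the raw, non-normalized signal, summed intensities of the kept member probes were 226730, 123861 and 215083 units on untreated and 168713, 227652 and 176601 units on rosiglitazone arrays, interleaved and not scaled for array totals. As a share of each total, the kept member probes made up 1.56%, 1.31% and 1.45% of the total raw intensity in untreated cells, compared with 1.63%, 1.67% and 1.51% after rosiglitazone. The highest untreated share exceeded the lowest treated one, so the groups overlapped in this measure. No background was subtracted here, so the background of all probes is part of each total and the share also varies with array brightness. Untreated replicate 2 had both the lowest total and the lowest share. By brightness, the 27 genes with a mean level of 11 or more had a median change of 0.18 and all 27 were above 0, and the 26 between 9 and 11 had 0.18 with 25 above 0. Of the 14 under 7, 10 were above 0 with a median of 0.08. Other named genes in those ranges had medians of 0.03, 0.04 and 0.03.

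Promoters were compared because most members shared a sign. RefSeq windows of 250 bases before to 50 after the transcription start (mouse GRCm38.p6) were found for 71 of the 87 genes, 67 of them kept, with 72 windows. The motif of NRF1, a transcription factor known to act on respiratory chain genes, was searched as GCATGCGC on both strands and was present in 16.7% of the kept members' windows, against 4.99% of windows of all kept named genes and 2.71% of all windows. A longer form, the same letters with GC before them, was in 8.33%, 1.90% and 0.971%. AAGATGGC, a core of YY1 sites, was in 15.3%, 4.18% and 2.75%. CCGGAAGT, for GABP, was in 5.56%, 7.65% and 3.89%, and TCAAGGTCA, for oestrogen-related receptors, in 2.78%, 0.246% and 0.423%. Median GC was 59.0% in the members' windows and 60.67% in those of all kept named genes. A match is a description of letters and not of binding.

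The longer NRF1 form is shown for one gene each of complexes I, IV and V and of the assembly factors, as 60 bases 5′ to 3′ on the gene's strand with the match in capitals. The windows are Ndufa11 (chr17:56717677-56717736, plus strand), Cox6a1 (chr5:115349086-115349145, minus strand), Atp5g2 (chr15:102671055-102671114, minus strand) and Ndufaf4 (chr4:24897945-24898004, plus strand). The match begins at positions -60, -162, -42 and -113 from the start. All 4 are identical over its 10 letters because the search was for exactly those letters.
Ndufa11: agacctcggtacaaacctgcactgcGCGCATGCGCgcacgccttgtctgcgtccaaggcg
Cox6a1: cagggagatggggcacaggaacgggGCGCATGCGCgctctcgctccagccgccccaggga
Atp5g2: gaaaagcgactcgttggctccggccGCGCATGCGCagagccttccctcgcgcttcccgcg
Ndufaf4: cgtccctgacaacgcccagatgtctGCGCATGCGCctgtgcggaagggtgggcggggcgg
Their log2 changes were 0.28, 0.30, 0.08 and -0.02, the last of them 0.05 by the gene's other probe. The other kept genes with the longer form, Ndufaf5 and Uqcrc1, were at 0.18 and 0.13, so 5 of 6 lay above 0. Over the kept members, the 12 with the shorter NRF1 match had a median change of 0.18 and those without it 0.17. The 11 genes with a YY1 match had 0.19 and those without 0.17. The order was the other way for the remaining motifs: 0.15 with and 0.17 without for the 6 genes with the longer NRF1 form, 0.09 and 0.18 for the 4 with GABP letters, and 0.01 and 0.18 for the 2 with those of oestrogen-related receptors. These differences were not tested.

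Cycs carries the shorter NRF1 letters (capitals), and Cox6b2 had the largest change by brightest probe. For that reason the 250 bases upstream of Cycs, known in rat as an NRF1 target, and of the paralogs Cox6b1 and Cox6b2 are shown. They lie at chr6:50566570-50566819, chr7:30626115-30626364 and chr7:4753095-4753344, all on the minus strand, and are written 5′ to 3′ along the gene.
Cycs: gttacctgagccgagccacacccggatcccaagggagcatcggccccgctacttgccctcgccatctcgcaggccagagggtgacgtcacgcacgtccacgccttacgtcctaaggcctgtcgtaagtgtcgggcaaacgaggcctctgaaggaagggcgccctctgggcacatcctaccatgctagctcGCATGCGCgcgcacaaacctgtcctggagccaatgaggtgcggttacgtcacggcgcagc
Cox6b1: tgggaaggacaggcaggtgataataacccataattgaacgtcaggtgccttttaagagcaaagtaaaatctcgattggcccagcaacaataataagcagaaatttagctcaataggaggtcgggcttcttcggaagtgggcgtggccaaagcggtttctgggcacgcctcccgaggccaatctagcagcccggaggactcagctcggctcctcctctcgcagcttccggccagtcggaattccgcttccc
Cox6b2: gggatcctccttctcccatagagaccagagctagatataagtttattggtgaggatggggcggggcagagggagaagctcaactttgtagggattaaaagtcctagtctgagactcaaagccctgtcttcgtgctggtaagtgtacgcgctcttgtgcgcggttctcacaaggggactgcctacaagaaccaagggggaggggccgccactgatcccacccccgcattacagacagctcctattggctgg
Neither Cox6b window held any of the motifs searched, which says only that those letters were not in these 250 bases.

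Genes that build and feed the chain were read in the same fit. None of the lists had a member past the threshold. Of 71 mitochondrial ribosomal protein genes, which translate the subunits encoded in mitochondrial DNA, 66 were above 0 (93.0%, against 55.7% of all kept named genes) with a median of 0.24. In 18 the treated arrays all lay higher, against 9.96% of all kept named genes. Mrpl50 was at 7.96, 7.78 and 7.95 untreated and 8.46, 8.24 and 8.43 with rosiglitazone (adjusted p = 0.256 in limma), and Mrps25, with the smallest p among the genes below 0 (adjusted p = 0.775), was at -0.18. The ribosomal list thus leaned in the same direction as the subunits, by a somewhat larger median.

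Complex IV assembly factors numbered 16, with 14 above 0 and a median of 0.21. Surf1, whose loss causes oxidase deficiency in humans, was at 0.50 (adjusted p = 0.343) and Cmc2 at -0.40. All 10 assembly factors of complexes II, III and V were above 0 (median 0.19, Sdhaf3 at 0.35). Of 6 complex I factors with other names, 4 were above 0 (median 0.14), with Acad9 at 0.39 and Ecsit at -0.06.

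Lists further from the chain were read in the same way. In the tricarboxylic acid cycle 13 of 15 genes were above 0, with a median of 0.08, Suclg1 at 0.39 and Dld at -0.18. Of 9 carriers and coupling proteins 6 were above 0 (median 0.12), with the electron transfer flavoprotein gene Etfb at 0.50 (adjusted p = 0.275) and the channel gene Vdac2 at -0.34. Import and chaperone genes were above 0 in 14 of 17 (median 0.12, Tomm7 at 0.36 and Hspd1 at -0.18), and ubiquinone synthesis genes in 7 of 9 (median 0.25, Coq9 at 0.33 and Coq10b at -0.40). Regulators of mitochondrial biogenesis did not share the direction, with 7 of 15 above 0 and a median of -0.05. Tfam, which packages and transcribes mitochondrial DNA, was at 0.33 (adjusted p = 0.484), the coactivator gene Ppargc1b at -0.63 (adjusted p = 0.393), and the factor genes Nrf1 and Esrra both at -0.05.

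**Figure D5:**
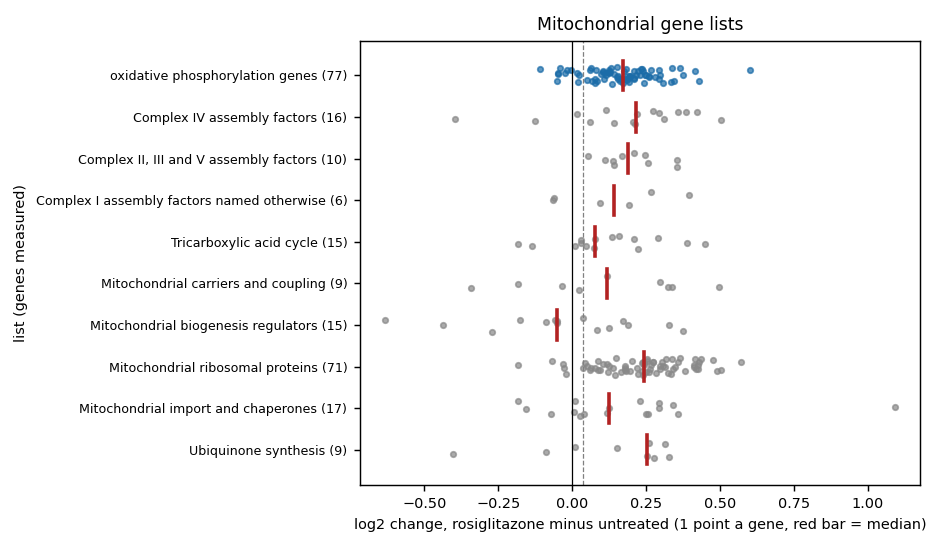
Log2 change, rosiglitazone minus untreated (horizontal axis, log2 units), of each measured gene (1 point) in the oxidative phosphorylation set without the pseudogene (blue) and in 9 other mitochondrial lists (grey), with the median as a red bar and the median of all kept named genes dashed. Medians lie between 0.08 and 0.25 in all lists but the biogenesis regulators, at -0.05.

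Markers of other cells that the sort could hold were read beside these values. Of 12 brown and beige markers, 3 were kept, with a mean log2 level of 5.82 to 6.05 untreated and 6.71 to 7.06 with rosiglitazone. Cox8b, an oxidase subunit gene of muscle and brown fat, rose by 1.92 log2 units (adjusted p = 0.00833) and Cited1 by 1.51 (adjusted p = 0.00731), while Cox7a1, also an oxidase gene of those tissues, was at -0.46 (adjusted p = 0.261). Ucp1, the defining gene of brown fat, was detected on 1 untreated and 0 rosiglitazone arrays, and Elovl3, Tmem26 and Kcnk3 on 0. Skeletal muscle markers (6 of 13 kept, 4 above 0 and 2 below) averaged 5.08 to 5.45 and 5.45 to 5.48, with 0 past the threshold. The largest change among them was that of Myl1, at 1.21 without overlap (adjusted p = 0.0883 in limma). Mesothelial markers (4 of 7 kept, 4 above 0) averaged 5.09 to 5.34 and 5.14 to 6.15, with 0 past it. Their largest change was that of Upk3b, at 1.21 with overlap (adjusted p = 0.242). Ckm and Pvalb of muscle and Msln of mesothelium were detected on 0 arrays. Erythroid markers (4 of 9 kept) averaged 7.11 to 9.94 untreated and 7.40 to 7.84 treated, and endothelial ones (10 of 10) 7.89 to 8.27 and 7.50 to 8.54. The erythroid peak of 9.94 belonged to untreated replicate 2, while untreated replicates 1 and 3 stood at 8.60 and 7.11. Rosiglitazone replicate 3 gave the endothelial peak of 8.54, and the remaining treated arrays stood at 7.50 and 7.53. What these peaks contributed to the differences between arrays was not tested. Mature adipocyte markers (5 of 10) were at 6.25 to 6.61 and 6.20 to 6.75, lymphocyte markers (2 of 10) at 4.75 to 5.15 and 4.78 to 5.36, and progenitor markers (8 of 10) at 9.81 to 10.06 and 9.91 to 10.03. The macrophage and the brown and beige levels separated the groups without overlap, and their part in the result was not tested.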

How the data were processed

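The authors deposited a non-normalized table of probe intensity on a linear scale, from its values with no background subtracted, with a detection p-value beside each intensity. Per the labels' protocols, RNA was labelled as biotinylated cRNA (Ambion MessageAmp) for Illumina bead arrays. The authors' normalized intensity table and series table hold the same values; scanner, software and normalization method were not given in the sources used here.

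Background was corrected by normexp from the detection p-values (nec, offset 16), values were put on a log2 scale and quantile normalized (limma 3.58.1, R 4.3.3). Probes detected at p under 0.05 on at least 3 arrays were kept. The groups of 3 arrays were compared with lmFit and eBayes without covariates, with Benjamini-Hochberg adjustment over 16442 probes and a threshold of 0.05. The p-values, standard errors and intervals rest on the spread between pooled cohorts, moderated by eBayes toward the spread over all kept probes. A gene with tight groups therefore has a wider interval than its own spread alone would give. Ndufv1, with SDs of 0.04 untreated and 0.03 with rosiglitazone, had a standard error of 0.16. The number of arrays limits the precision. A gene was read by its brightest kept probe. Symbols came from the platform annotation (34885 probes with 1 symbol, 18 with several, 10378 unnamed here). The code was tested on simulated data.

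Named genes were those past the threshold, the 2 smallest p-values and the largest opposing change in each complex, core subunits, isoform pairs, genes whose probes differed in sign, and genes not kept. From other lists, the smallest p in each direction was named. Nrf1 and Esrra in the regulator list and genes named only as present or absent were added after their values were seen. So were Ndufa5, Ndufb6, Ndufb11, Atp5l, Atp5mpl, Atp5md, Myl1 and Upk3b. The members and lists were chosen with earlier results of these data known. Alternatives covered background, normalization, source table, detection filter, variance model, array weights, replicate block, each array left out, probe averaging and threshold. No chip identity was available as a block in the columns or labels used here.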

Additional observations from a re-analysis of the deposited data

How the results depend on the processing

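Over 18 alternatives, 606 of 645 values of named genes kept their direction and side of the threshold, 38 lost direction and 1 newly passed. No member passed in the main fit, so the side of the threshold could hardly change. The replicate block and the trended, robust variance leave the log2 changes as they are, so the count of 606 is not a measure of robustness. The number of oxidative phosphorylation genes above 0 stayed between 64 and 76 of 78 where the gene set was unchanged, and their median between 0.12 and 0.22. The median exceeded that of all kept named genes by 0.13, by 0.11 with median scaling and by 0.13 with cyclic loess. With median scaling the members' mean level varied far more between arrays of a group (SD 0.37, against 0.08 in the main fit). With each array left out of the main fit, the excess over all kept named genes ran from 0.10 without untreated replicate 2 to 0.19 without untreated replicate 1. The count of member probes past the threshold was 0 in each setting except array weights, with 1, Cox6b2 (log2 change 0.71, adjusted p = 0.0455).

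All probes past the threshold numbered 260 (30 higher) with median scaling, 157 (26 higher, 131 lower) without a detection filter, and 248 (191 lower) with a detection p under 0.01 on all 6 arrays. The number of higher probes was 168 with array weights and 148 at an adjusted p of 0.1. Leaving out each array gave 216 to 435 probes, 31 to 116 higher and 185 to 319 lower.

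The median of complex III was 0.11 with median scaling and 0.14 with cyclic loess, and that of complex I assembly factors 0.0885 without background correction and 0.0902 on the authors' normalized table. Leaving out each array gave 0.0853 to 0.226 for complex III, 0.0857 to 0.217 for complex V, 0.124 to 0.248 for complex IV, 0.0201 to 0.225 for complex II and 0.0873 to 0.229 for the assembly factors. Complexes IV and V were highest without untreated replicate 1. The assembly factors stood at 0.09 without untreated replicate 2 or 3. Averaging a gene's probes put Cycs, and so cytochrome c, at -0.12 and Ndufaf4 at 0.0107.

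Signs changed for genes whose own change lay between -0.11 and 0.17. Array weights put Cox6c at 0.0524, Atp5e at 0.0741, Atp5a1 at 0.0679, Cox7b at 0.0532 and Atp5g2 at -0.0338, and median scaling put Atp5b at -0.0095. With each array left out, Ndufb4 ran from -0.24 to 0.20, Sdhd from -0.34 to 0.0624, Uqcrq from -0.31 to 0.21, Cox6c from -0.26 to 0.17, Atp5e from -0.20 to 0.0787, Ndufaf4 from -0.0718 to 0.0415, Ndufs3 from -0.0602 to 0.15, Ndufv2 from -0.0059 to 0.14, Atp5a1 from -0.11 to 0.0705, Atp5b from -0.0782 to 0.14, Cox4i1 from -0.039 to 0.22, Cox6b1 from -0.0062 to 0.25, Cox7a2 from -0.10 to 0.29, Cox7b from -0.38 to 0.33 and Atp5g2 from -0.10 to 0.20. The cause of these changes was not tested.

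Samples that share a replicate number had deviations correlating at 0.045, -0.006 and 0.35, and other pairs ran from -0.296 to 0.27. With 3 arrays a group, these values cannot decide whether the numbers pair cohorts. With the replicate number as a block, 475 probes passed (113 higher), 0 of them members. Quantile normalization before log2 was chosen after seeing the data and changed no call of a member. In the main fit no probe with a fold change under 1.66 was called, which limits what these 6 arrays can show of the members.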
